A study of Homo sapiens with 9 samples.

Results

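ER to Golgi vesicle transport was followed through 44 genes, listed by symbol, of the 15570 genes in the deposited expression table. The list holds 12 genes of the COPII coat and its assembly, 9 of the COPI coat, 2 ARF GTPases, 8 TMED (p24) proteins, 4 other cargo receptors, 3 KDEL receptors, 4 SNAREs and 2 YIP family proteins. All 44 were in the table, none was listed at 0 in any library, and all passed the filter on low values (at least 1 FPKM in at least 3 libraries). RNA was measured in hCMEC/D3, an immortalised line of human brain microvascular endothelial cells labelled hCMEC. Control cells (n = 3 libraries) received no deprivation. OGD cells (n = 3), grown in DMEM, stood in medium without glucose for 4 h under 95% N2 and 5% CO2. OGD/R cells (n = 3) went through the same deprivation and then 16 h in normal medium under 21% O2 and 5% CO2. The groups carry no transgene or drug in their labels and all come from 1 cell line. The labels do not say whether replicates were separate cultures, so the p-values cover the spread among these libraries alone, and that spread may be technical. The labels do not give the time at which control cells were harvested, so time in culture and reoxygenation cannot be told apart.

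Proteins made in the endoplasmic reticulum (ER) leave it in vesicles coated with COPII, which the GTPase SAR1 starts to assemble at ER exit sites. An inner layer of SEC23 and SEC24 takes up cargo, and an outer cage of SEC13 and SEC31 bends the membrane. COPI vesicles, assembled by ARF1, carry receptors and escaped ER residents back from the Golgi. Cargo receptors (the TMED, LMAN and SURF4 proteins) link soluble cargo to these coats, KDEL receptors return ER chaperones, and SNAREs fuse the vesicles with their target. In endothelial cells the route carries junction proteins, matrix proteins and surface receptors to the plasma membrane.

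Promoters were searched for the binding sequences of the ER stress response, because many genes of this route are known targets of its factors XBP1 and ATF6. The windows came from RefSeq on GRCh38.p14 and ran from 250 bases before to 50 after each transcript start. A window was present for 39 of the 44 genes. The core of the unfolded protein response element, TGACGTGG on either strand, was in the windows of 9 of 39 members (23.1%), against 1.21% of the 8999 tested genes with a window and 0.927% of all 27305 genes in the promoter table. The shorter box CCACG, which the core holds on its other strand, was in 36 of 39 members (92.3%), against 58.0% and 42.1%. Both longer elements, the ER stress response element (CCAAT, 9 bases, CCACG) and the ER stress response element II (ATTGG, 1 base, CCACG), were found in 0 of 39 members, 0.178% and 0.144% of tested genes. These shares describe letters in a window, were not tested, and say nothing of binding. The 10 stretches that hold the core follow, 5′ to 3′ along the gene, with the core in capitals, to show where it lies in each gene. Each stretch is 30 bases.
ARF1, chr1:228082681-228082710: cccggaggcgcTGACGTGGccgccgtcaga
COPA, chr1:160343227-160343256: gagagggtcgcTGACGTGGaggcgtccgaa
COPB1, chr11:14499841-14499870: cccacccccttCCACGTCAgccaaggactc
COPB2, downstream site, chr3:139389632-139389661: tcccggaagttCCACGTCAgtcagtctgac
COPB2, upstream site, chr3:139389825-139389854: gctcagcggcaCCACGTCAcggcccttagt
KDELR3, chr22:38468039-38468068: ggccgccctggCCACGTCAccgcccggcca
SEC16A, chr9:136484707-136484736: tggccctggtgCCACGTCAgccggactgaa
SEC23A, chr14:39103221-39103250: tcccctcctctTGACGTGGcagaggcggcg
SEC24A, chr5:134648595-134648624: gtgagagtcggTGACGTGGcggcgaggccg
STX5, chr11:62832049-62832078: ttacgtgtaggTGACGTGGccgcttccagt

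The core was read in the gene's own direction in ARF1, COPA, SEC23A, SEC24A and STX5, and in the opposite direction in COPB1, COPB2, KDELR3 and SEC16A. COPB2 held it at 2 places, in its upstream and downstream site. In SEC23A the core spanned positions -4 to 3 around the transcript start, and in ARF1 and STX5 it stood at -16 to -9. The 9 genes belong to 5 of the 8 classes, with COPI coat and COPII genes in the majority.

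Depth is unknown, since the FPKM values (fragment counts scaled to transcript length and library size) gave no steps of whole reads. Their sum per library ranged from 454237 to 537878 for control, 585947 to 605818 for OGD and 442696 to 449248 for OGD/R. The 44 members made up 0.471% to 0.574% of that sum among control libraries, 0.416% to 0.439% among OGD and 0.604% to 0.681% among OGD/R libraries. The FPKM of the members themselves summed to 2531 to 2659 for control, 2507 to 2572 for OGD and 2716 to 3024 for OGD/R. The lower share in OGD thus goes with the larger sum over all genes there. Of 12 endothelial marker genes, 5 reached 1 FPKM in at least 3 libraries, with control means of 13.8 FPKM for ENG, 12.2 for EGFL7, 10.1 for FLI1, 1.26 for CDH5 and 1.11 for PECAM1. KDR, VWF and TEK, receptors and a clotting factor that mark endothelium, stayed under 0.1 FPKM in every library, so the defining markers of the labelled cell type were present in part. The endothelial list summed to 35.5 to 43.7 FPKM for control, 19.4 to 21.6 for OGD and 59.6 to 68.1 for OGD/R. Means in OGD/R were 33.7 FPKM for ENG, 15.0 for FLI1, 9.83 for EGFL7, 1.97 for CDH5 and 1.27 for PECAM1. Against control, ENG and FLI1 were called higher there, CDH5 and PECAM1 were not called, and EGFL7 lay lower without passing. A fibroblast list of 5 genes, of which 3 passed the filter, summed to 20.4 to 28.2, 9.17 to 10.7 and 51.9 to 69.2. COL1A1 had means of 6.29, 2.24 and 29.3 FPKM and COL1A2 of 12.2, 4.20 and 26.9 in control, OGD and OGD/R. LUM, which also passed the filter, did not follow them, with means of 4.35, 3.40 and 3.41 and no call in any comparison. DCN reached at most 0.186, and PDGFRA stayed at or under 0.0118. Pericyte and smooth muscle genes (4 of 6 passing) summed to 10.2 to 13.7, 6.14 to 7.71 and 17.1 to 19.5, epithelial genes (1 of 4) to 9.56 to 13.3, 11.2 to 12.1 and 9.35 to 11.2, and leukocyte genes (2 of 4) to 18.2 to 21.6, 21.4 to 22.4 and 27.5 to 29.6. Most of the epithelial sum was KRT8, with means of 10.6, 11.4 and 9.93 FPKM, while EPCAM reached at most 0.104 and CDH1 0.0211. Most of the leukocyte sum was CD68, with means of 18.3, 21.1 and 26.6 FPKM, while PTPRC reached at most 0.1004 and AIF1 0.0801. AQP4 of the astrocyte and neuron list was not analysed here. None of its other 3 genes passed, and their sum never exceeded 0.517. The part of these shifts in the results on transport genes was not tested.

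In OGD, 22 of the 44 members passed the test against control, 7 higher and 15 lower (limma on log2(FPKM + 1), Benjamini-Hochberg adjusted p under 0.05 over all 10818 genes tested). Over all genes 58.0% passed, 11.3% higher and 46.7% lower. The median log2 fold change was -0.16 over members and -0.31 over all genes. Between OGD/R and OGD, 27 members passed, 20 higher and 7 lower, beside 70.7% of all genes, 53.3% higher and 17.4% lower. The medians were 0.15 and 0.39. Between OGD/R and control, 19 passed, 14 higher and 5 lower, beside 41.2% of all genes, 24.7% higher and 16.5% lower, with medians of 0.092 and 0.065. The shares of members called were thus 50%, 61.4% and 43.2%, below the background in the first and second comparison and close to it in the third. A change of at least 2-fold was reached by 1 member in the first comparison, 7 in the second and 0 in the third, beside 6.19%, 20.5% and 3.48% of all genes. All differences are log2 fold changes of FPKM + 1 from this fit of 3 libraries a group, with their SE. In bulk RNA, fewer cells and less RNA per cell cannot be told apart.

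The direction of many small changes depended on how libraries were scaled, and other scalings moved the median of all genes in OGD against control from -0.31 to 0.0054 (median of ratios), -0.026 (quantile normalization) or -0.019 (each library's trend on transcript length removed). The median of the members went from -0.16 to 0.20, 0.0015 and 0.12, from 0.15 to -0.32, 0.096 and -0.051 in OGD/R against OGD, and from 0.092 to -0.013, 0.14 and 0.034 in OGD/R against control, so its sign depended on the scaling. With those scalings the split of members in OGD against control became 21 higher and 2 lower, 8 and 5, and 13 and 3 of 44, beside 27.1% and 22.4%, 20.02% and 22.4%, and 21.2% and 23.3% of all genes. For OGD/R against OGD the 20 higher and 7 lower became 10 and 24, 15 and 8, and 11 and 15, beside 31.7% and 35.0%, 31.4% and 31.3%, and 29.9% and 30.7%. For OGD/R against control the 14 and 5 became 13 and 10, 17 and 4, and 13 and 8, beside 21.6% and 23.6%, 22.1% and 23.1%, and 20.6% and 23.1%. Calls that held in all 20 alternative settings numbered 8 of 22, 15 of 27 and 12 of 19. The same share over all genes called was not computed. These counts of stable calls cover only members called without rescaling. A member said to pass in no comparison did not pass in the fit without rescaling. Such members could pass under another scaling, as SAR1A, COPE and LMAN1 did in OGD/R against OGD.

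Read across both comparisons with control, which share the control libraries, 14 members passed in neither when libraries were not rescaled. Another 6 were lower in OGD and higher in OGD/R (SEC24A, SEC24C, COPG1, ARCN1, SURF4 and KDELR1), and 7 were lower in OGD only among these 2 comparisons (SAR1B, SEC23A, SEC24B, COPB1, TMED5, KDELR2 and YIPF5). A further 6 passed only in OGD/R against control and were higher (SEC31A, SEC16A, SEC23IP, COPA, ARF1 and GOSR2), and 2 passed only there and were lower (TMED1 and TMED7). SEC13 and LMAN2 were higher in both, TMED3, TMED10, MCFD2 and SEC22B higher in OGD only, YIF1A higher in OGD and lower in OGD/R, and KDELR3 and BET1 lower in both. The heat map by library and the plot of fold changes show these patterns for all 44. The share of all genes with each pattern was not computed, so the counts are a description. Of all genes, 46.7% were lower and 11.3% higher in OGD, and 24.7% were higher and 16.5% lower in OGD/R against control. With each of the 3 other scalings, SAR1B was called lower in OGD/R and not called in OGD.

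**Figure D1:**
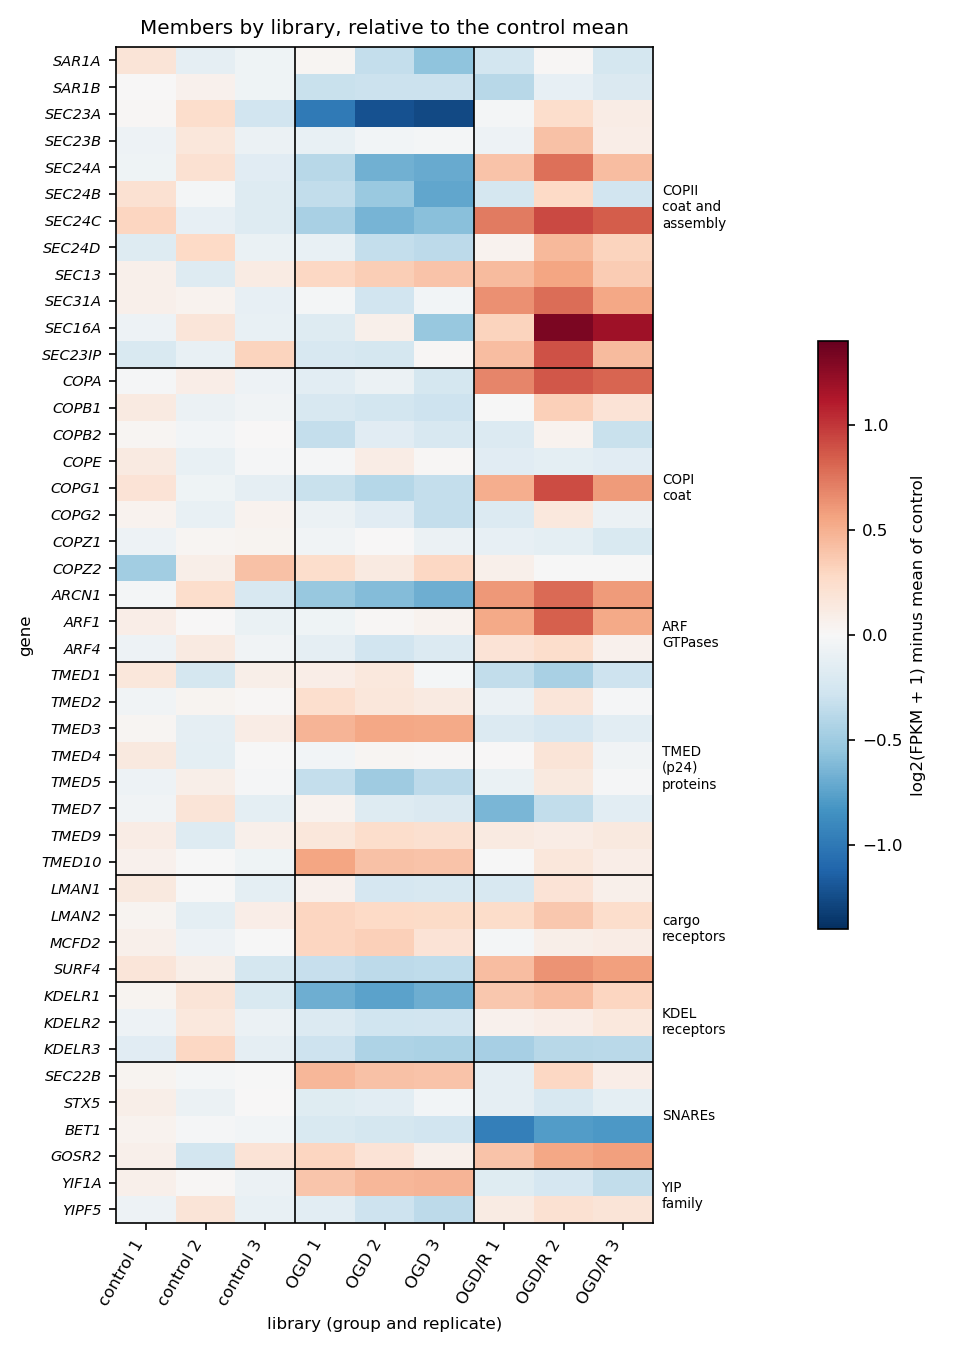
Each row is 1 of the 44 members, grouped by class, and each column 1 of the 9 libraries; colour is log2(FPKM + 1) minus the mean of the 3 control libraries. SEC23A is among the deepest blue rows in the OGD columns, at 20.0, 17.0 and 16.5 FPKM against 33.8 to 48.6 in control.

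**Figure D2:**
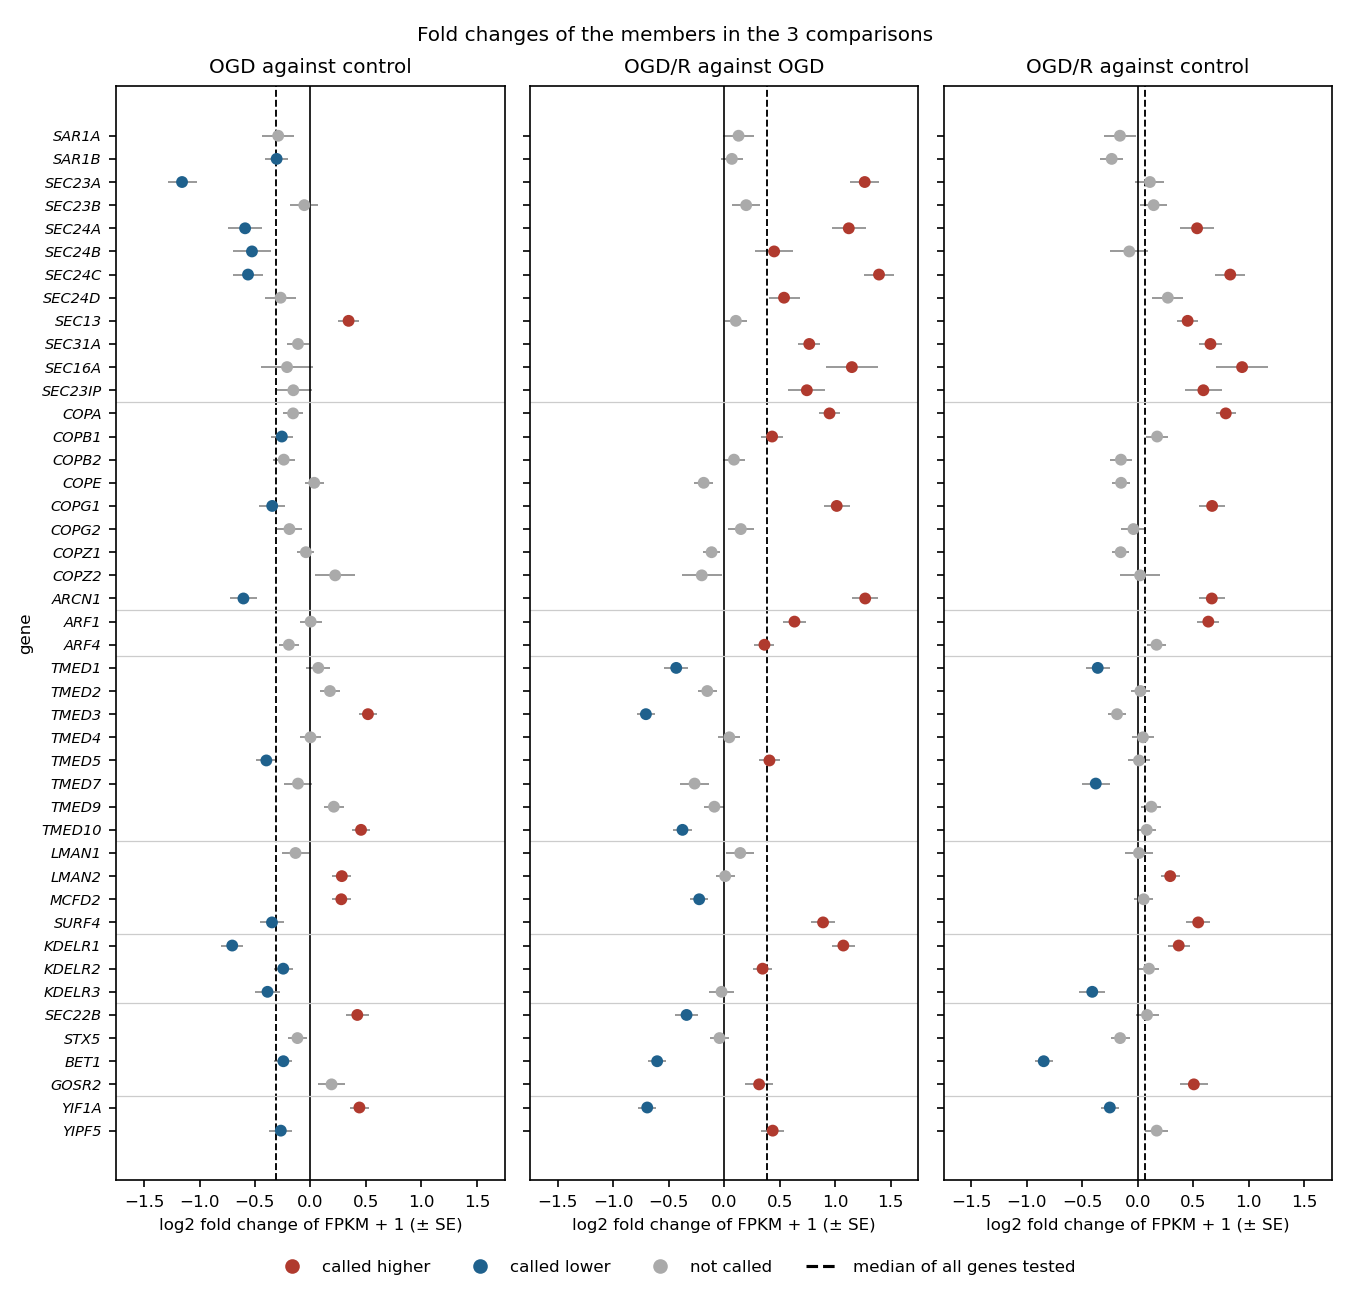
Log2 fold changes of FPKM + 1 (points, with SE bars) of the 44 members in the 3 comparisons; red and blue points passed the test as higher and lower, grey points did not, and the dashed line is the median of all genes tested (-0.31, 0.39 and 0.065). SEC23A is the leftmost point in OGD against control at -1.16, and BET1 the leftmost in OGD/R against control at -0.85.

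In the COPII class, 5 of 12 genes were lower and 1 higher in OGD, 8 were higher and 0 lower in OGD/R against OGD, and 6 were higher and 0 lower in OGD/R against control. The share lower in OGD was 41.7%, beside 46.7% of all genes, and the share higher in OGD/R was 66.7% against OGD and 50% against control, beside 53.3% and 24.7%. With the other scalings, in the same order, the split in OGD was 3 higher and 1 lower, 1 and 1, and 2 and 1, and that in OGD/R against OGD was 5 and 4, 6 and 1, and 4 and 2. That in OGD/R against control was 6 and 1, 6 and 1, and 4 and 2. SEC23A, the inner coat subunit that activates the GTPase of SAR1 (NCBI Gene 10484, chr14:39031919-39103235), was at 41.5, 48.6 and 33.8 FPKM in control, 20.0, 17.0 and 16.5 in OGD and 40.1, 48.6 and 44.1 in OGD/R. All 3 OGD values lay below all others, and control and OGD/R overlapped. It fell in OGD with a log2 fold change of -1.16 ± 0.13 (SE, adjusted p = 3.48e-05) and a ratio of means of 0.432, and rose (1.27 ± 0.13 SE, adjusted p = 4.40e-06) in OGD/R against OGD. Both calls held in every alternative setting, and SEC23A was the member with the largest change in OGD. Against control, the difference in OGD/R was 0.11 ± 0.13 (SE, adjusted p = 0.529). The gene overlaps the antisense gene SEC23A-AS1, and the use of strand in counting is not given in the sources used here. SEC23B, its paralog, was at 18.0, 21.3 and 17.9 FPKM in control, 17.7, 18.5 and 18.6 in OGD and 18.1, 25.6 and 20.3 in OGD/R, passed in no comparison, and overlapped between all groups.

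Among the 4 SEC24 cargo adaptors, SEC24C (NCBI Gene 9632, chr10:73744372-73772161) was at 13.9, 10.2 and 9.70 FPKM in control, 7.84, 6.70 and 7.09 in OGD and 19.0, 22.01 and 20.8 in OGD/R. The OGD values were the lowest and the OGD/R values the highest, without overlap. It fell in OGD (-0.56 ± 0.13 SE, adjusted p = 0.00383), a call lost with each of the other 3 scalings (the 20 alternatives gave adjusted p of 0.00179 to 0.158). It rose in OGD/R against OGD (1.4 ± 0.13 SE, adjusted p = 2.69e-06) and stood above control (0.83 ± 0.13 SE, adjusted p = 5.25e-04), both in every alternative setting. SEC24A (NCBI Gene 10802, chr5:134648382-134727909) was at 5.52, 6.83 and 5.09 FPKM in control, 4.17, 3.26 and 3.15 in OGD and 7.93, 10.6 and 8.13 in OGD/R, with the same order of groups and no overlap. Its fall in OGD was -0.59 ± 0.15 (SE, adjusted p = 0.00584), again lost with all 3 other scalings (the 20 alternatives gave adjusted p of 0.00396 to 0.35), and its rise in OGD/R against OGD was 1.12 ± 0.15 (SE, adjusted p = 3.53e-05) in every setting. Against control it was higher in OGD/R (0.53 ± 0.15 SE, adjusted p = 0.0143), a call lost with the length trend removed and without OGD/R replicate 2 (the 20 alternatives gave adjusted p of 0.00786 to 0.0933).

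SEC24B was at 9.33, 7.73 and 6.86 FPKM in control, 6.04, 5.23 and 4.39 in OGD and 6.51, 9.82 and 6.43 in OGD/R. It fell in OGD (-0.53 ± 0.17 SE, adjusted p = 0.0192) and rose in OGD/R against OGD (0.45 ± 0.17 SE, adjusted p = 0.0321), and control and OGD/R overlapped. Neither call was firm: the first was lost with all 3 other scalings and without control replicate 1 or OGD replicate 3 (the 20 alternatives gave adjusted p of 0.00939 to 0.464), and the second turned negative with quantile normalization and with the length trend removed and was lost with median-of-ratios scaling (0.027) and without OGD replicate 2, OGD replicate 3 or OGD/R replicate 2 (the 20 alternatives gave adjusted p of 0.022 to 0.867). SEC24D, the most abundant of the 4 per length, was at 20.0, 27.8 and 21.4 FPKM in control, 21.1, 18.0 and 17.4 in OGD and 23.6, 31.6 and 28.6 in OGD/R. OGD/R lay above OGD, and both overlapped control. It rose in OGD/R against OGD (0.54 ± 0.14 SE, adjusted p = 0.00405), which was lost with all 3 other scalings (the 20 alternatives gave adjusted p of 0.00104 to 0.728), and passed in no other comparison.

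The scaffold of ER exit sites, SEC16A (NCBI Gene 9919, chr9:136440105-136484740), was at 4.60, 5.61 and 4.48 FPKM in control, 4.18, 5.18 and 3.08 in OGD and 6.29, 13.7 and 12.4 in OGD/R. OGD/R lay above both other groups, but its replicate 1 was far below replicates 2 and 3. SEC16A was higher in OGD/R than in OGD (1.15 ± 0.24 SE, adjusted p = 8.49e-04), lost with the length trend removed (the 20 alternatives gave adjusted p of 4.63e-05 to 0.343), and higher than in control (0.94 ± 0.24 SE, adjusted p = 0.00757) in every alternative setting. SEC31A, a subunit of the outer cage, was at 43.4, 42.8 and 38.0 FPKM in control, 40.5, 34.2 and 40.1 in OGD and 64.7, 71.9 and 60.8 in OGD/R. Control and OGD overlapped and every OGD/R library lay above them, against OGD (0.77 ± 0.10 SE, adjusted p = 2.71e-05) and against control (0.65 ± 0.10 SE, adjusted p = 3.87e-04), both in every setting. SEC23IP, which binds SEC23 at exit sites, was at 6.04, 6.599 and 9.15 FPKM in control, 5.98, 5.86 and 7.22 in OGD and 10.04, 14.2 and 10.1 in OGD/R. OGD/R lay above both other groups, which overlapped. It was higher in OGD/R against control (0.59 ± 0.17 SE, adjusted p = 0.0143) and against OGD (0.75 ± 0.17 SE, adjusted p = 0.00162). The first call was lost with the length trend removed and without OGD/R replicate 2 (the 20 alternatives gave adjusted p of 0.00386 to 0.239), and the second was lost with median-of-ratios scaling and quantile normalization and turned negative with the length trend removed.

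The remaining COPII genes were SEC13, SAR1A and SAR1B. SEC13, the other cage subunit, which also serves in the nuclear pore, had means of 82.5 ± 9.14, 105 ± 4.18 and 113 ± 7.51 FPKM (SD, n = 3) and was the only COPII gene that was higher in OGD (0.34 ± 0.10 SE, adjusted p = 0.00914). It was also higher in OGD/R than in control (0.45 ± 0.10 SE, adjusted p = 0.003), and both calls held in every alternative setting. SAR1B was lower in OGD (-0.30 ± 0.10 SE, adjusted p = 0.0213), but its sign turned positive with all 3 other scalings, to 0.055, 0.019 and 0.16, and the call was lost without control replicate 2 or any OGD replicate. In OGD/R against control it did not pass (-0.24 ± 0.10 SE, adjusted p = 0.0804). With those 3 scalings it passed as lower there, at -0.33, -0.35 and -0.53 (limma, adjusted p = 0.00567, 0.00506 and 5.00e-04). Against OGD, too, SAR1B did not pass (0.070) but was lower with those scalings (-0.39, -0.37 and -0.69, limma, adjusted p = 0.00108, 0.00212 and 2.95e-05). SAR1A ranged from 42.2 to 52.1 FPKM for control, 30.7 to 47.0 for OGD and 38.4 to 46.4 for OGD/R and passed in no comparison. SAR1A has 4 annotated pseudogenes, and SEC24A and SEC13 have 1 each, with which reads could be shared.

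**Figure D3:**
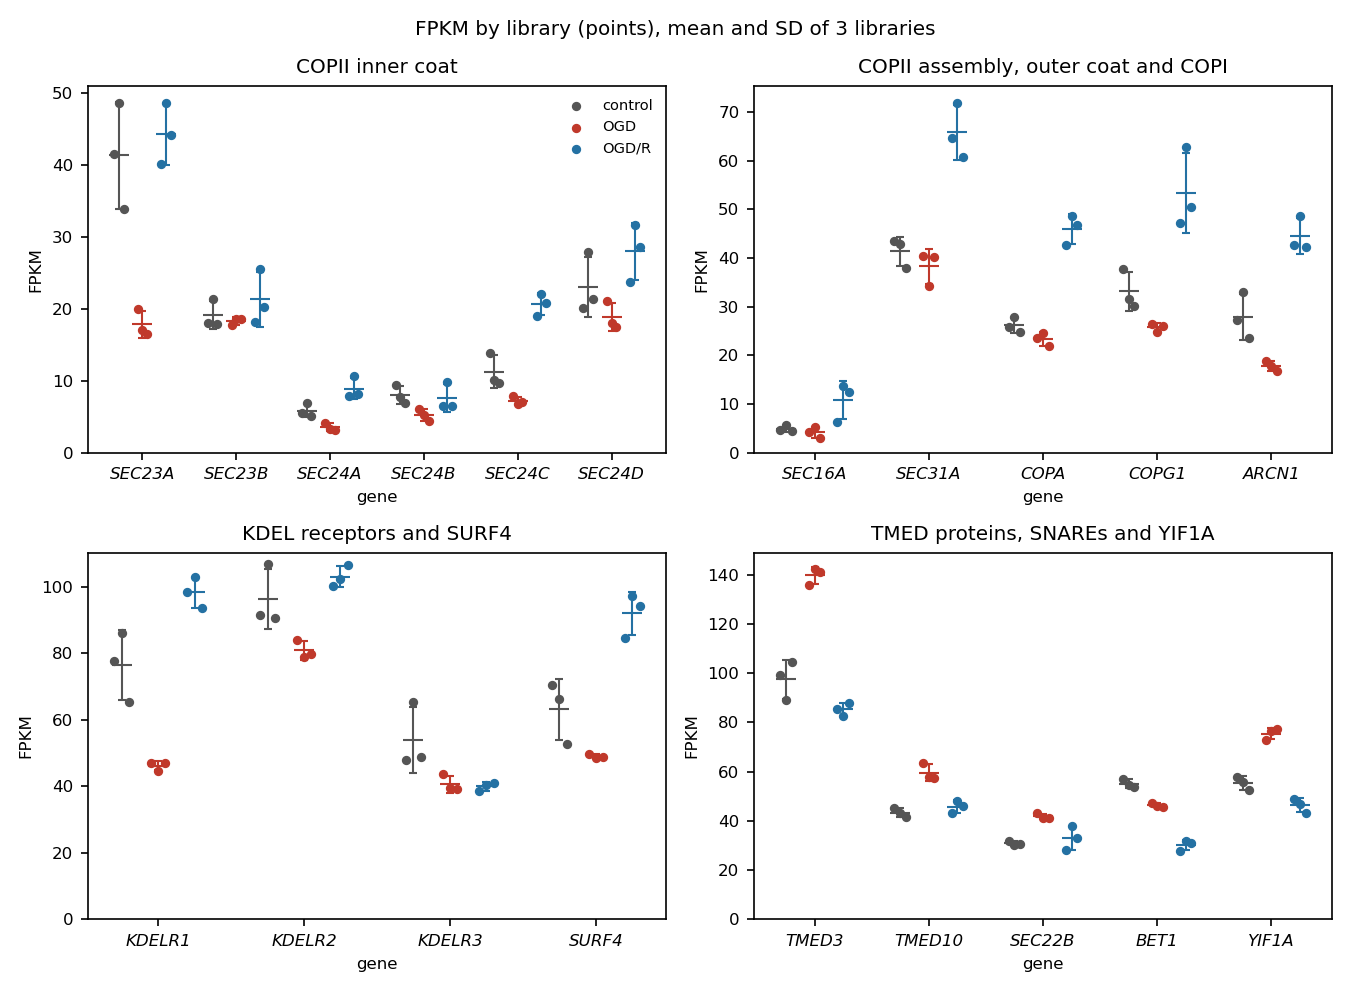
FPKM of 20 members in each library (points; grey control, red OGD, blue OGD/R) with the mean and SD of 3 libraries, on axes that start at 0. SEC23A, SEC24C, ARCN1 and KDELR1 are lowest in OGD, while TMED3, TMED10, SEC22B and YIF1A are highest there.

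In the COPI coat, 3 of 9 genes were lower and 0 higher in OGD, 4 higher and 0 lower in OGD/R against OGD, and 3 higher and 0 lower in OGD/R against control. The share lower in OGD was 33.3%, beside 46.7% of all genes, and the share higher in OGD/R was 44.4% against OGD and 33.3% against control, beside 53.3% and 24.7%. With median-of-ratios scaling the split in OGD was 4 higher and 0 lower, and in OGD/R against OGD 3 higher and 5 lower, so the class has no direction that holds under every scaling. The genes of this coat, whose subunits work as 1 complex, differed in whether they passed. ARCN1, the delta subunit (NCBI Gene 372, chr11:118572409-118603033), was at 27.2, 33.0 and 23.5 FPKM in control, 18.9, 17.8 and 16.9 in OGD and 42.7, 48.7 and 42.2 in OGD/R. The 3 groups did not overlap. It fell in OGD (-0.60 ± 0.12 SE, adjusted p = 0.0012), a call lost with median-of-ratios scaling (the 20 alternatives gave adjusted p of 2.55e-04 to 0.0906), rose in OGD/R against OGD (1.27 ± 0.12 SE, adjusted p = 2.17e-06) and stood above control (0.67 ± 0.12 SE, adjusted p = 9.97e-04), the last 2 in every setting. ARCN1 overlaps the coding gene IFT46, whose log2 fold changes were -0.37, 0.091 and -0.28 in the 3 comparisons.

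COPA, the alpha subunit (NCBI Gene 1314, chr1:160288594-160343250), was at 25.8, 27.8 and 24.8 FPKM in control, 23.5, 24.6 and 21.9 in OGD and 42.6, 48.6 and 46.8 in OGD/R. OGD/R stood alone above both other groups, against OGD (0.95 ± 0.09 SE, adjusted p = 2.70e-06) and against control (0.79 ± 0.09 SE, adjusted p = 7.01e-05), in every alternative setting. The gamma subunit COPG1 was at 37.7, 31.5 and 30.1 FPKM in control, 26.5, 24.7 and 26.1 in OGD and 47.2, 62.7 and 50.4 in OGD/R, lowest in OGD and highest in OGD/R without overlap. It was higher in OGD/R against OGD (1.01 ± 0.12 SE, adjusted p = 1.05e-05) and against control (0.67 ± 0.12 SE, adjusted p = 8.90e-04), in every setting. Its fall in OGD, -0.34 ± 0.12 (SE, adjusted p = 0.0242), turned to 0.026 with median-of-ratios scaling and was lost with both other scalings and without control replicate 1, OGD replicate 2 or OGD replicate 3. COPG2, its paralog, was at 19.4, 17.4 and 19.4 FPKM in control, 17.7, 16.7 and 14.6 in OGD and 16.3, 20.8 and 17.7 in OGD/R and passed in no comparison. It overlaps MEST and TSGA13.

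COPB1, a beta subunit, was at 93.4, 80.8 and 82.2 FPKM in control, 72.9, 71.1 and 69.5 in OGD and 85.0, 107 and 97.9 in OGD/R, with OGD lowest and control and OGD/R overlapping. It fell in OGD (-0.26 ± 0.10 SE, adjusted p = 0.0392) and rose in OGD/R against OGD (0.43 ± 0.10 SE, adjusted p = 0.00173). The fall turned to 0.12 with median-of-ratios scaling and 0.0302 with the length trend removed and was lost in 9 other alternatives, 5 of which each left out 1 library (control replicate 1, any OGD replicate or OGD/R replicate 3), and the rise turned to -0.053 with median-of-ratios scaling and was lost with the length trend removed. COPB2, COPE, COPZ1, COPZ2 and COPG2 passed in no comparison. COPE had the highest level of the coat per length, 212 to 248 FPKM for control, 225 to 244 for OGD and 203 to 207 for OGD/R, and COPZ2 the lowest, 6.94 to 13.8, 11.2 to 12.7 and 10.1 to 10.7. COPZ1, which overlaps GPR84, ranged from 97.7 to 105, 96.8 to 103 and 88.3 to 94.7. COPB2 had log2 fold changes of -0.24, 0.089 and -0.15 with an adjusted p of 0.0508 in the first.

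ARF1, the GTPase that recruits COPI, was at 183, 173 and 161 FPKM in control, 166, 174 and 178 in OGD and 249.9, 309 and 249 in OGD/R. Control and OGD overlapped and OGD/R lay above both, against OGD (0.63 ± 0.10 SE, adjusted p = 1.11e-04) and against control (0.64 ± 0.10 SE, adjusted p = 4.34e-04). The second of these held in every setting, and the first was lost with median-of-ratios scaling (the 20 alternatives gave adjusted p of 5.13e-05 to 0.163). ARF4, a GTPase of the same family, was at 226, 259 and 230.3 FPKM in control, 218, 198 and 208 in OGD and 273, 282 and 249 in OGD/R and rose only in OGD/R against OGD (0.36 ± 0.09 SE, adjusted p = 0.00301), which turned to -0.13 with median-of-ratios scaling. Reads could be shared with 3 ARF1 pseudogenes, 5 ARF4 pseudogenes and PDE12, which overlaps ARF4.

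The TMED proteins form complexes that cycle between ER and Golgi and take GPI-anchored proteins and WNT ligands as cargo. Of 8 genes, 2 were higher and 1 lower in OGD, 1 higher and 3 lower in OGD/R against OGD, and 0 higher and 2 lower in OGD/R against control. These were 25% and 12.5%, 12.5% and 37.5%, and 0% and 25%, beside the 11.3% and 46.7%, 53.3% and 17.4%, and 24.7% and 16.5% of all genes. With the other scalings, the counts in OGD were 6 higher and 0 lower, 2 and 0, and 4 and 0, and in OGD/R against OGD 0 higher and 7, 3 and 6 lower. TMED3 (NCBI Gene 23423, chr15:79311112-79413886) was at 99.1, 89.0 and 104 FPKM in control, 136, 142 and 141 in OGD and 85.4, 82.7 and 88.0 in OGD/R. OGD lay above both other groups. TMED3 rose in OGD (0.52 ± 0.08 SE, adjusted p = 3.41e-04) and fell in OGD/R against OGD (-0.71 ± 0.08 SE, adjusted p = 1.19e-05), in every alternative setting. TMED10 was at 45.1, 43.1 and 41.4 FPKM in control, 63.6, 57.8 and 57.4 in OGD and 43.1, 48.1 and 45.9 in OGD/R, with OGD again above both groups and control and OGD/R overlapping. It rose in OGD (0.46 ± 0.08 SE, adjusted p = 8.40e-04) and fell in OGD/R against OGD (-0.38 ± 0.08 SE, adjusted p = 0.00162), in every setting.

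TMED5 was at 28.1, 31.2 and 29.3 FPKM in control, 23.2, 20.6 and 22.7 in OGD and 27.6, 32.6 and 29.2 in OGD/R. It was lower in OGD (-0.40 ± 0.10 SE, adjusted p = 0.00388) and higher in OGD/R against OGD (0.41 ± 0.10 SE, adjusted p = 0.00206), with control and OGD/R overlapping. Neither call held under another scaling. The fall was lost with median-of-ratios scaling (-0.029) and quantile normalization (-0.16), the rise turned to -0.065 with the first and was lost with the second (0.16), and with the length trend removed both signs turned, to 0.043 and -0.30, the latter at an adjusted p of 0.01 (values over 20 alternatives from 0.00128 to 0.513). TMED1 was at 67.7, 51.1 and 64.3 FPKM in control, 64.6, 67.2 and 59.4 in OGD and 47.6, 43.9 and 49.5 in OGD/R. OGD/R lay below both other groups, against OGD (-0.43 ± 0.11 SE, adjusted p = 0.00342), in every setting, and against control (-0.36 ± 0.11 SE, adjusted p = 0.0189), a call lost with the length trend removed and without control replicate 1, control replicate 3 or OGD/R replicate 2. TMED7 was at 65.9, 76.9 and 62.0 FPKM in control, 70.1, 59.96 and 58.9 in OGD and 43.3, 53.2 and 61.2 in OGD/R. OGD/R lay below control and overlapped OGD. It was lower in OGD/R than in control (-0.38 ± 0.13 SE, adjusted p = 0.0322), lost in 7 alternatives including quantile normalization and those without control replicate 2, OGD/R replicate 1 or OGD/R replicate 2 (the 20 alternatives gave adjusted p of 0.00488 to 0.132). TMED2, TMED4 and TMED9 passed in no comparison when libraries were not rescaled. With median-of-ratios scaling all 3 were higher in OGD, at 0.56, 0.37 and 0.59 (limma, adjusted p = 4.95e-04, 0.00467 and 0.00108). They were then lower in OGD/R against OGD, at -0.64, -0.43 and -0.58. With the length trend removed TMED2 and TMED9 passed as higher in OGD and TMED4 did not, and with quantile normalization none of them passed there. TMED2 was the most abundant per length, at 122 to 129.6 FPKM in control, and TMED4 ranged from 27.0 to 32.8 there. TMED3 overlaps MINAR1, TMED5 overlaps CCDC18, TMED7 overlaps the readthrough gene TMED7-TICAM2, and TMED10 and TMED2 have 2 and 1 pseudogenes.

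Among the other cargo receptors, SURF4, which exports lipoproteins and other soluble cargo, was at 70.4, 66.2 and 52.8 FPKM in control, 49.7, 48.6 and 48.9 in OGD and 84.7, 97.3 and 94.2 in OGD/R. The 3 groups did not overlap. It rose in OGD/R against OGD (0.89 ± 0.11 SE, adjusted p = 1.36e-05) and against control (0.54 ± 0.11 SE, adjusted p = 0.00176), in every setting, while its fall in OGD, -0.35 ± 0.11 (SE, adjusted p = 0.0146), turned to 0.0302 with median-of-ratios scaling and was lost with both other scalings and without control replicate 1. LMAN2, a lectin for glycoproteins, was at 76.7, 67.6 and 79.6 FPKM in control, 92.0, 90.6 and 89.7 in OGD and 89.1, 96.7 and 88.5 in OGD/R. Control lay below both other groups, which overlapped. It was higher in OGD (0.28 ± 0.09 SE, adjusted p = 0.0134), in every setting, and higher in OGD/R than in control (0.29 ± 0.09 SE, adjusted p = 0.0163), lost in 3 alternatives (the 20 alternatives gave adjusted p of 0.00115 to 0.108), among them median-of-ratios scaling and the one without OGD/R replicate 2. MCFD2, the partner of LMAN1 in exporting clotting factors V and VIII, was also higher in OGD (0.28 ± 0.08 SE, adjusted p = 0.013), from 62.1 ± 3.22 FPKM in control to 75.4 ± 3.89 in OGD, lost without OGD replicate 2, and lower in OGD/R against OGD (-0.22 ± 0.08 SE, adjusted p = 0.0285), lost in 6 alternatives including quantile normalization and those without OGD replicate 1, OGD replicate 2 or OGD/R replicate 1. LMAN1 itself had means of 42.5 ± 4.05, 38.7 ± 4.83 and 43.0 ± 6.31 FPKM and passed in no comparison. SURF4 overlaps STKLD1, and MCFD2 overlaps TTC7A and has 1 pseudogene.

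All 3 KDEL receptors were lower in OGD, beside 46.7% of all genes, with a class median of -0.39 beside -0.31 over all genes. The sign of KDELR2 turned under median-of-ratios scaling. Ratios of the 3 receptors to each other differed between groups. KDELR1 (NCBI Gene 10945, chr19:48382575-48397412, overlapping GRIN2D) was at 77.9, 86.3 and 65.2 FPKM in control, 46.9, 44.7 and 47.0 in OGD and 98.6, 103 and 93.7 in OGD/R. The groups did not overlap, with OGD lowest and OGD/R highest. It fell in OGD (-0.71 ± 0.10 SE, adjusted p = 1.64e-04), rose in OGD/R against OGD (1.07 ± 0.10 SE, adjusted p = 2.25e-06) and was above control (0.37 ± 0.10 SE, adjusted p = 0.0119), in every alternative setting. KDELR2 was at 91.7, 107 and 90.5 FPKM in control, 84.2, 78.9 and 79.8 in OGD and 100.4, 102 and 107 in OGD/R, with OGD lowest and control and OGD/R overlapping. Its fall, -0.25 ± 0.09 (SE, adjusted p = 0.0277), and its rise in OGD/R against OGD, 0.35 ± 0.09 (SE, adjusted p = 0.0032), turned to 0.13 and -0.14 with median-of-ratios scaling, so that the class as a whole has no direction in OGD that holds under every scaling. Both were lost with the length trend removed (-0.0083 and 0.041), and the fall was also lost with quantile normalization and without control replicate 2, OGD replicate 2 or OGD replicate 3. KDELR3 was at 47.8, 65.4 and 48.7 FPKM in control, 43.6, 39.3 and 39.0 in OGD and 38.4, 40.4 and 40.9 in OGD/R. Control lay above both other groups, which overlapped. It was lower in OGD (-0.39 ± 0.11 SE, adjusted p = 0.0123), lost with all 3 other scalings (the 20 alternatives gave adjusted p of 0.0072 to 0.943), did not pass in OGD/R against OGD (-0.023 ± 0.11 SE, adjusted p = 0.861), and was lower than control there (-0.41 ± 0.11 SE, adjusted p = 0.0132), lost only with the length trend removed (the 20 alternatives gave adjusted p of 0.00686 to 0.0509). KDELR3 overlaps DDX17, which had log2 fold changes of -0.53, 0.79 and 0.27.

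The SNAREs of this route are SEC22B, STX5, BET1 and GOSR2. SEC22B (NCBI Gene 9554, chr1:120150898-120176520) was at 31.7, 30.3 and 30.7 FPKM in control, 43.0, 41.3 and 41.0 in OGD and 28.1, 37.9 and 33.1 in OGD/R. OGD lay above all other libraries. SEC22B rose in OGD (0.42 ± 0.10 SE, adjusted p = 0.00443) and fell in OGD/R against OGD (-0.34 ± 0.10 SE, adjusted p = 0.0107), in every setting. BET1 (NCBI Gene 10282, chr7:93962762-94004355, overlapping BET1-AS1) was at 57.0, 54.4 and 53.7 FPKM in control, 47.2, 46.1 and 45.6 in OGD and 27.9, 31.6 and 31.0 in OGD/R. The groups did not overlap, with OGD/R lowest. BET1 fell in OGD/R against OGD (-0.60 ± 0.08 SE, adjusted p = 3.74e-05) and against control (-0.85 ± 0.08 SE, adjusted p = 2.47e-05), in every setting, the largest fall of any member against control there. Its smaller fall in OGD, -0.24 ± 0.08 (SE, adjusted p = 0.0227), turned to 0.13 and 0.052 with median-of-ratios scaling and with the length trend removed and was lost with quantile normalization and without control replicate 1 or any OGD replicate. SEC22B has 3 annotated pseudogenes and BET1 has 1, with which reads could be shared.

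GOSR2 was at 14.4, 11.3 and 15.8 FPKM in control, 17.1, 15.8 and 14.4 in OGD and 18.4, 20.4 and 20.8 in OGD/R. OGD/R lay above both other groups, which overlapped. The difference from control was 0.50 ± 0.13 (SE, adjusted p = 0.00699), in every setting. Against OGD its difference of 0.32 ± 0.13 (SE, adjusted p = 0.0386) turned negative with all 3 other scalings and was lost without OGD replicate 2, OGD replicate 3, OGD/R replicate 2 or OGD/R replicate 3. It overlaps LRRC37A2. STX5, the Golgi syntaxin, had means of 41.3 ± 2.45, 38.0 ± 1.98 and 36.8 ± 1.47 FPKM and passed in no comparison. The YIP family proteins, which cycle between ER and Golgi membranes, were called in opposite directions in OGD, YIPF5 with a sign that turned under median-of-ratios scaling. YIF1A (NCBI Gene 10897, chr11:66284580-66289143) was at 58.0, 55.8 and 52.3 FPKM in control, 72.8, 76.5 and 77.1 in OGD and 49.0, 46.8 and 43.2 in OGD/R, with OGD above and OGD/R below control and no overlap. It rose in OGD (0.44 ± 0.08 SE, adjusted p = 9.26e-04) and fell in OGD/R against OGD (-0.69 ± 0.08 SE, adjusted p = 1.38e-05), both in every setting. Its difference from control in OGD/R, -0.25 ± 0.08 (SE, adjusted p = 0.0287), was lost in 10 alternatives (the 20 alternatives gave adjusted p of 0.0101 to 0.475), among them quantile normalization and the removal of the length trend, and 5 of them left out control replicate 1, OGD replicate 2 or 3 or OGD/R replicate 2 or 3. YIPF5 was at 25.0, 30.0 and 24.5 FPKM in control, 23.7, 21.4 and 20.3 in OGD and 28.6, 30.8 and 30.1 in OGD/R, with OGD lowest and control and OGD/R overlapping. It was lower in OGD (-0.27 ± 0.10 SE, adjusted p = 0.0396) and higher in OGD/R against OGD (0.44 ± 0.10 SE, adjusted p = 0.00206), and these turned to 0.10 and -0.035 with median-of-ratios scaling. Both were lost with quantile normalization (-0.029 and 0.19) and with the length trend removed (-0.0066 and 0.085), and the fall also without control replicate 2, OGD replicate 2, OGD replicate 3 or OGD/R replicate 3.

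Ratios of paralogs within a library do not depend on a size factor per library, apart from the pseudocount. The log2 ratio of (FPKM + 1) was compared over the 3 groups for 14 pairs (exact permutation test of F, 1680 assignments, smallest p 0.00357, Benjamini-Hochberg over the 14), and 8 pairs had an adjusted p under 0.05. The pairs were chosen with earlier results known. Ratios of other gene pairs were not tested, so no background share stands beside the 8. Several pairs also share a gene, and the count is a description. The log2 ratio of SEC23B to SEC23A was -1.16, -1.15 and -0.88 in control, -0.17, 0.12 and 0.16 in OGD and -1.11, -0.90 and -1.08 in OGD/R (exact permutation, adjusted p = 0.0429). Of the summed FPKM of the pair, SEC23A made up 68.2% ± 2.44 in control, against 49.3% ± 3.30 after OGD and 67.6% ± 1.84 after OGD/R (SD, n = 3). The call on the ratio was lost without control replicate 2, OGD replicate 3, OGD/R replicate 2 or OGD/R replicate 3. Of SEC24 FPKM, SEC24C made up 23.5% ± 4.65 in control, against 20.8% ± 1.14 after OGD and 31.8% ± 1.86 after OGD/R, and SEC24D 47.9% ± 6.14 in control, against 54.2% ± 0.249 after OGD and 42.9% ± 1.66 after OGD/R.

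The ratios of SEC24B and SEC24D to SEC24A were lowest in OGD/R, where that of SEC24D overlapped control. The log2 ratio of SEC24D to SEC24A was 1.69, 1.88 and 1.88 in control, 2.1, 2.16 and 2.15 in OGD and 1.46, 1.49 and 1.7 in OGD/R (exact permutation, adjusted p = 0.02), and that of SEC24B to SEC24A 0.66, 0.16 and 0.37 in control, 0.45, 0.55 and 0.38 in OGD and -0.25, -0.10 and -0.30 in OGD/R (exact permutation, adjusted p = 0.0437). Both were lost with the length trend removed (exact permutation, adjusted p = 0.0611 each), an alternative added after seeing the data, and SEC24B to SEC24A was lost in 7 of 9 fits that left out 1 library. SEC24D to SEC24C had an adjusted p of 0.05 by the same exact permutation test, which is not under the threshold. In the COPI coat, COPG2 to COPG1 was -0.93, -0.82 and -0.61 in control, -0.56, -0.54 and -0.80 in OGD and -1.48, -1.55 and -1.46 in OGD/R (exact permutation, adjusted p = 0.02), lowest in OGD/R without overlap.

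Among the KDEL receptors all 3 ratios had the smallest p the permutations can give (adjusted p = 0.0167 each, exact permutation). KDELR3 to KDELR1 was -0.69, -0.40 and -0.41 in control, -0.10, -0.18 and -0.26 in OGD and -1.34, -1.33 and -1.18 in OGD/R. KDELR2 to KDELR1 was 0.23, 0.31 and 0.47 in control, 0.83, 0.80 and 0.75 in OGD and 0.026, -0.0091 and 0.18 in OGD/R. KDELR3 to KDELR2 was -0.93, -0.70 and -0.88 in control, -0.93, -0.99 and -1.01 in OGD and -1.36, -1.32 and -1.36 in OGD/R. None of the 3 ratios overlapped between groups, the closest being control replicate 1 at -0.926 and OGD replicate 1 at -0.935 for KDELR3 to KDELR2. Of the FPKM of the 3 genes, KDELR1 made up 33.7% ± 1.98 in control, against 27.6% ± 0.745 after OGD and 40.8% ± 1.67 after OGD/R, and KDELR3 23.7% ± 1.65 in control, against 24.2% ± 0.699 after OGD and 16.5% ± 0.395 after OGD/R. The share of KDELR1 was thus lowest in OGD and highest in OGD/R, and that of KDELR3 lowest in OGD/R. ARF4 to ARF1 was 0.30, 0.58 and 0.51 in control, 0.40, 0.19 and 0.22 in OGD and 0.13, -0.13 and -0.0016 in OGD/R (exact permutation, adjusted p = 0.0333), lost with the length trend removed and without control replicate 2, OGD replicate 3, OGD/R replicate 2 or OGD/R replicate 3. The other 5 pairs, SEC24C to SEC24A, SAR1B to SAR1A, COPZ2 to COPZ1, LMAN2 to LMAN1 and TMED7 to TMED3, had adjusted p of 0.321, 0.929, 0.504, 0.132 and 0.06 (exact permutation). The plot of paralog ratios shows every library.

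**Figure D4:**
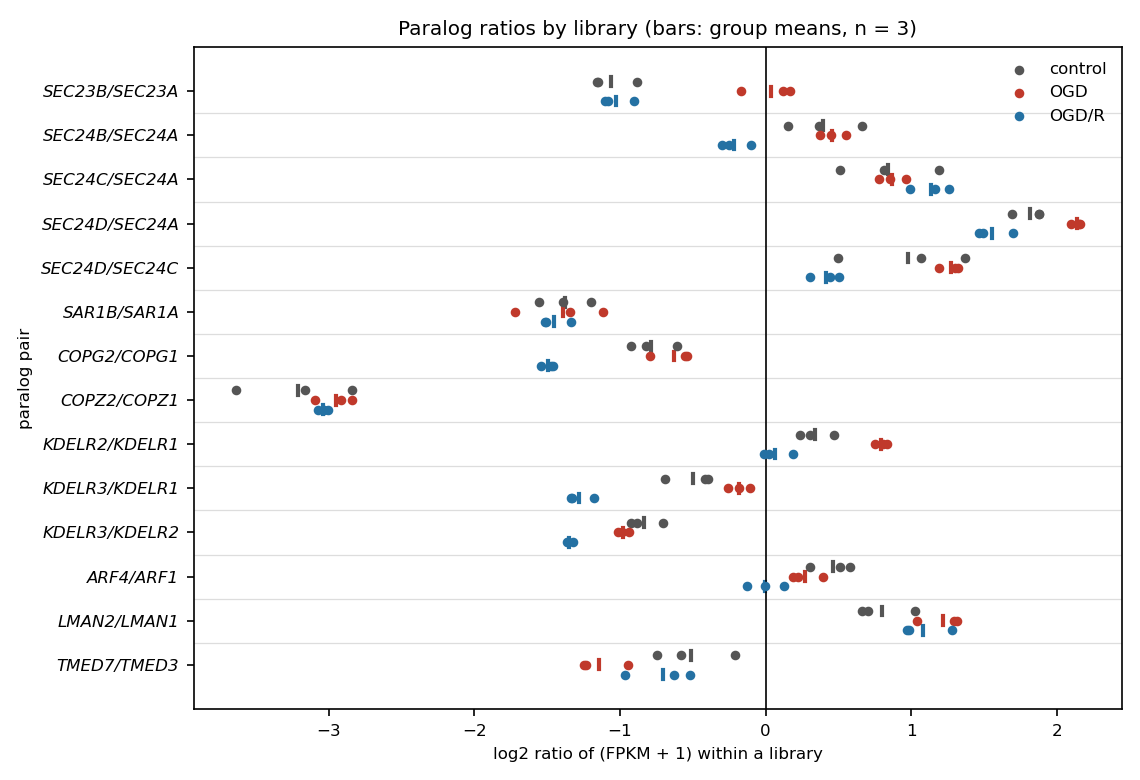
Log2 ratio of (FPKM + 1) within a library for 14 paralog pairs (points are libraries, bars group means; grey control, red OGD, blue OGD/R). The SEC23B/SEC23A ratio in OGD lies at -0.17 to 0.16, apart from the other groups, and the KDELR3/KDELR1 ratio in OGD/R at -1.34 to -1.18.

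Transcript length moved with these differences over the whole table. For each library, the deviation of log2(FPKM + 1) from the gene's mean over all 9 libraries was regressed on the log2 of length. Its slope for each doubling was 0.00175 ± 0.0664 (SD, n = 3) in control, -0.187 ± 0.0292 after OGD and 0.185 ± 0.0495 after OGD/R. These slopes compare libraries with each other and do not give the relation of FPKM to length within a group. Across the 44 members, Pearson's r between log2 fold change and log2 length was -0.34, 0.41 and 0.29 in the 3 comparisons, beside -0.35, 0.48 and 0.37 across 10804 genes with a length; the points share libraries and are given as a description. Of the 12 members under 2000 bases, 3 were higher and 2 lower in OGD, and of the 32 longer ones 4 and 13, beside 27.1% and 23.1%, and 6.37% and 54.1%, of all genes in the same length classes. The same counts for OGD/R against OGD were 2 and 2, and 18 and 5, beside 19.7% and 45.9%, and 63.7% and 8.55%. In OGD/R against control they were 3 and 3, and 11 and 2, beside 8.26% and 36.4%, and 29.8% and 10.4%. KDELR1 at 1557 bases went against the trend, lowest in OGD and highest in OGD/R, as did TMED10 at 4127 and SEC22B at 6922, which were highest in OGD, and BET1 at 3586, lowest in OGD/R. SEC23A at 4135 and SEC24C at 4513 moved with it. The part of length in single results was not tested beyond the alternative with its trend removed, under which SEC23A, KDELR1 and ARCN1 stayed lower in OGD. That trend was a straight line in log2 length. In OGD/R against OGD, medians of length bins levelled off at 0.68, 0.69 and 0.68 for median lengths of 4923, 6156 and 8774 bases. The line may thus correct long members such as SEC16A, SEC23IP, TMED5 and SAR1B too far, which was not tested.

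**Figure D5:**
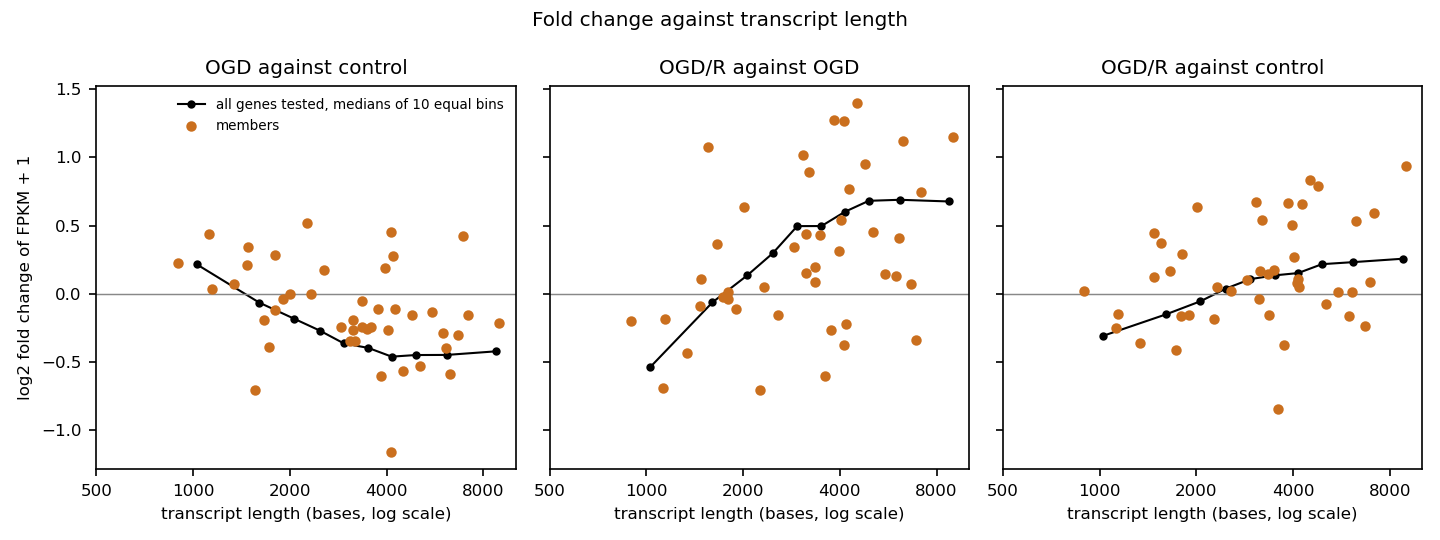
Log2 fold change against transcript length (log axis) in the 3 comparisons; points are the 44 members and the line joins medians of 10 equal bins of all genes tested. Bin medians fall with length in OGD against control, to -0.46 at 4148 bases, and climb with it in OGD/R against OGD, to 0.68 at 4923 bases. They are nearly level at greater lengths, and members are spread to both sides of the line.

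The 9 members with the unfolded protein response core were compared with the 30 that had a window without it, as counts only. In OGD against control 0 were higher and 4 lower (SEC23A, SEC24A, COPB1 and KDELR3, of which SEC24A, COPB1 and KDELR3 lost the call under all 3 other scalings), beside 7 and 10 of 30 and 11.3% and 46.7% of all genes, with medians of -0.24 and -0.11. In OGD/R against OGD 6 were higher and 0 lower (SEC23A, SEC24A, SEC16A, COPA, COPB1 and ARF1, of which SEC16A, COPB1 and ARF1 lost the call under at least 1 other scaling), beside 11 and 7, with medians of 0.63 and 0.12. Compared with control, 4 were higher and 1 lower, beside 10 and 4 and 24.7% and 16.5% of all genes. STX5 and COPB2, which also hold the core, passed in none when libraries were not rescaled. These splits changed with scaling. With median-of-ratios scaling, COPB2, KDELR3 and STX5 were called lower in OGD/R against OGD, at -0.40, -0.50 and -0.52. SEC23A, SEC24A, SEC16A and COPA stayed higher there. In OGD against control, COPA, ARF1 and STX5 were then called higher, at 0.21, 0.38 and 0.26. With the length trend removed, COPB2 was also called lower in OGD/R against OGD (-0.30). The share of the 9 that was higher in OGD/R against OGD, 66.7%, stands beside 53.3% of all genes, and the difference was not tested.

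Other genes of the route were read from a list of 81, of which 80 were in the table, 76 passed the filter and LMAN1L was not analysed here. In OGD 6 were higher and 35 lower, in OGD/R against OGD 40 higher and 19 lower, and in OGD/R against control 18 higher and 19 lower. These were 7.89% and 46.1%, 52.6% and 25%, and 23.7% and 25%, beside 11.3% and 46.7%, 53.3% and 17.4%, and 24.7% and 16.5% of all genes. With median-of-ratios scaling these became 25 and 12, 17 and 31, and 14 and 23, with quantile normalization 13 and 16, 23 and 28, and 20 and 22, and with the length trend removed 18 and 15, 25 and 26, and 20 and 20. GBF1, the exchange factor that loads ARF1 with GTP, was at 5.23, 4.04 and 3.19 FPKM in control, 1.67, 1.68 and 1.64 in OGD and 8.90, 11.2 and 9.61 in OGD/R. It was lowest in OGD (-0.93 ± 0.15 SE, adjusted p = 4.03e-04) and highest in OGD/R (1.09 ± 0.15 SE, adjusted p = 2.19e-04 against control, and 2.03 ± 0.15 SE, adjusted p = 5.10e-07 against OGD). CREB3L1, a transcription factor of the ER membrane that acts on secretory genes, was at 9.05, 10.1 and 7.16 FPKM in control, 4.78, 3.72 and 4.56 in OGD and 19.4, 21.1 and 18.4 in OGD/R, higher in OGD/R against OGD (1.95 ± 0.14 SE, adjusted p = 3.08e-07) and against control (1.09 ± 0.14 SE, adjusted p = 1.13e-04). GOLGA2, a golgin that tethers vesicles at the cis-Golgi, was at 7.69, 5.02 and 4.90 FPKM in control, 4.78, 5.42 and 4.16 in OGD and 14.0, 17.0 and 15.0 in OGD/R, higher in OGD/R against OGD (1.5 ± 0.16 SE, adjusted p = 5.81e-06) and against control (1.27 ± 0.16 SE, adjusted p = 1.19e-04). These 3 genes were thus highest in OGD/R, as were COPA, SEC31A and SEC16A among the members.

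In the other direction, TRAPPC2L and TRAPPC6A, subunits of the TRAPP tethering complexes, and the ER SNARE USE1 were lower in OGD/R than in OGD. USE1 was at 22.9, 20.0 and 22.1 FPKM in control, 33.4, 37.1 and 35.9 in OGD and 14.8, 13.6 and 15.4 in OGD/R, higher in OGD (0.69 ± 0.10 SE, adjusted p = 1.29e-04) and lower in OGD/R against OGD (-1.22 ± 0.10 SE, adjusted p = 6.10e-07). TRAPPC2L was at 27.9, 20.6 and 33.2 FPKM in control, 48.0, 50.1 and 52.3 in OGD and 22.9, 20.6 and 23.0 in OGD/R, higher in OGD (0.88 ± 0.14 SE, adjusted p = 3.09e-04) and lower in OGD/R against OGD (-1.14 ± 0.14 SE, adjusted p = 1.52e-05). TRAPPC6A was at 10.05, 7.59 and 8.81 FPKM in control, 7.98, 9.38 and 10.1 in OGD and 3.59, 1.90 and 3.82 in OGD/R and was lower in OGD/R against control (-1.29 ± 0.19 SE, adjusted p = 2.69e-04), as were the cargo adaptor CNIH4 (-0.90 ± 0.12 SE, adjusted p = 1.70e-04) and SEC22A (-0.67 ± 0.13 SE, adjusted p = 0.00143). In OGD, CNIH2 (-1.03 ± 0.19 SE, adjusted p = 7.59e-04) and TRAPPC12 (-0.87 ± 0.15 SE, adjusted p = 5.50e-04) were lower and BNIP1 (0.48 ± 0.13 SE, adjusted p = 0.00731) higher. Each largest rise and fall named here for other genes of the route, GBF1, CREB3L1 and GOLGA2 included, kept its call with the length trend removed. Their calls under median-of-ratios scaling and quantile normalization were not examined gene by gene.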

How the data were processed

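The authors deposited a single table of FPKM values, with a row per gene and a column per library. The genome build was GRCh38, per the submitters' processing notes. Aligner, quantification tool, annotation and use of strand were not given in the sources used here. Total RNA from a column kit went into SMARTer mRNA libraries, per the labels' protocols. Depth is unknown, so no counting interval or floor was computed, and genes that overlap others or have pseudogenes may share reads.

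Values were tested as log2(FPKM + 1) (pseudocount 1) by limma 3.58.1 (R 4.3.3) and libraries were not rescaled. The filter kept genes that reached 1 FPKM in 3 or more of the 9 libraries (10818 of 15570). All libraries entered 1 fit of 3 groups taken from the sample titles (lmFit, then eBayes with an intensity trend, 6 residual and 6.33 prior degrees of freedom). Tests were 2-sided, with Benjamini-Hochberg adjustment over all genes tested and a threshold of 0.05. Every adjusted p of a gene is limma's. The pseudocount makes fold changes of low genes too small. The test was tried on simulated data first. Paralog ratios were tested by exact permutation in Python 3.11.15, and figures drawn with matplotlib 3.10.9.

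Transcript length was that of the longest GENCODE release 29 transcript paired with the RefSeq record of a gene, and positions, overlaps and promoter windows came from RefSeq GRCh38.p14, matched by NCBI Gene identifier (44 of 44 members). SEC24D, ARF4, TMED4, TMED9 and KDELR2 had no promoter window. The members and lists were chosen with earlier results of these data known. Full values were given for the members of each class with the largest called changes against control (up to 4 in classes of 8 or more members, up to 2 in smaller ones) and for both genes of each pair that passed, and for other genes of the route the 3 largest called rises and falls in each comparison were named. Alternatives were other pseudocounts, filters, scalings, samples in the fit, priors, the replicate number as a block, and leaving out each library.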

Additional observations from a re-analysis of the deposited data

How the results depend on the processing

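Scaling between libraries moved the counts of members most, and the cause was not tested. In OGD against control the number higher went from 7 to 21 (median of ratios) and 13 (length trend removed), the number lower from 15 to 2, 5 (quantile normalization) and 3 (length trend removed), and the number called from 22 to 13 with quantile normalization. In OGD/R against OGD the number higher went from 20 to 10 (median of ratios) and 11 (length trend removed), and the number lower from 7 to 24 and 15. In OGD/R against control the number lower went from 5 to 10 (median of ratios) and 8 (length trend removed), and to 3 with only the groups compared in the fit and 3 without the intensity trend. Leaving out 1 library gave 8 to 16 members lower in OGD against control (9 without OGD replicate 2 and 8 without OGD replicate 3) and 2 to 5 lower in OGD/R against control (3 without control replicate 1 and 2 without OGD/R replicate 2). Without control replicate 3, members called numbered 24, 27 and 18.

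Signs that turned in OGD against control, as log2 fold changes, were SAR1B (0.055 with median of ratios, 0.019 with quantile normalization, 0.16 with the length trend removed), COPB1 (0.12 with median of ratios, 0.0302 with the length trend removed), BET1 (0.13 and 0.052, likewise), TMED5 (0.043, length trend removed), and, with median of ratios, COPG1 (0.026), SURF4 (0.0302), KDELR2 (0.13) and YIPF5 (0.10). In OGD/R against OGD they were GOSR2 (-0.15, -0.065 and -0.16 with the 3 scalings), SEC24B (-0.099 with quantile normalization, -0.16 with the length trend removed), TMED5 (-0.065 with median of ratios, -0.30 with the length trend removed), SEC23IP (-0.048, length trend removed), and, with median of ratios, COPB1 (-0.053), ARF4 (-0.13), KDELR2 (-0.14) and YIPF5 (-0.035). No sign turned in OGD/R against control among the 19 members called, under the 20 alternatives run.

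No pairing of libraries by replicate number was seen: deviations of same-numbered libraries correlated between -0.20 and 0.15, and 2 of 9 libraries correlated best with their own number. With so few libraries this check cannot exclude a shared culture or batch by number, which the labels do not give. With the replicate block, 18, 25 and 18 members were called in place of 22, 27 and 19, and 0 paralog pairs passed in place of 8, where permuting within a number leaves few assignments. Leaving out 1 library gave 5 to 10 pairs (5 without OGD replicate 3, OGD/R replicate 2 or OGD/R replicate 3), and the log2 ratio of SAR1B to SAR1A in OGD/R minus control, which did not pass, ranged from -0.162 to 0.0176. Unknown depth limits what can be said of single low values.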
